A study of Homo sapiens with 8 samples.

Results

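The genes described here are 9 transcriptional targets of p53: CDKN1A, MDM2, BAX, BBC3, FAS, GDF15, SESN1, ZMAT3 and TP53I3. They were chosen by name, and each was taken from the row that carries its symbol, or from the row with the highest mean FPKM where a symbol had several. All 9 were found, among 33575 gene loci at day 0 and 34690 at day 3.5. Cells of H9, an established line of human embryonic stem cells, were kept on soft (400 Pa) or stiff (60 kPa) gels in feeder-conditioned medium. Cells were either undifferentiated (day 0) or induced to mesoderm with bFGF, Activin, VEGF and BMP4 and taken at day 3.5. The 4 groups, day 0 on 400 Pa, day 0 on 60 kPa, day 3.5 on 400 Pa and day 3.5 on 60 kPa, held 2 libraries each, 8 in all, and no genotype or drug set them apart. All groups are the same cell line, and whether the 2 libraries of a group are separate cultures is not labelled, so the p-values measure only a spread that may be technical.

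p53 is a transcription factor that is stabilised by DNA damage and other stresses and binds pairs of short repeated sequences near its target genes. Its targets arrest the cell cycle, start apoptosis, alter metabolism or, in the case of MDM2, mark p53 itself for degradation and so close a feedback loop. Human embryonic stem cells are known to die readily after DNA damage, and p53 is known to take part in their exit from self-renewal.

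The sequences near 3 of the genes are shown first because p53 binds DNA through sites of this kind. Promoter windows of all 9 genes were taken from RefSeq on build GRCh38.p14, 17 windows in all because some genes have several starts, and the 250 bases before each start were searched for the p53 consensus site, a pair of adjoining decamers of 20 bases in all. The consensus reads the same on both strands, so a single pass covers both. MDM2 and FAS held a match with at most 2 mismatches, as did 0.561% of all 35116 windows, and SESN1 held one with 3, as did 4.36% of all windows with at most that many. These shares are per window, while each gene was counted by the best of its windows, and MDM2, FAS and SESN1 each had several. The best match of the other 6 genes had 4 or 5 mismatches. In the stretches below, written 5′ to 3′ along the gene, capitals mark each match with at most 3 mismatches.
MDM2, intron, plus strand, chr12:68808878-68808987: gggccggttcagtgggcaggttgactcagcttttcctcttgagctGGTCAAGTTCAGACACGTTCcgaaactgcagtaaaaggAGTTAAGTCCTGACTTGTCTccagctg
FAS, exon, plus strand, chr10:88991304-88991333: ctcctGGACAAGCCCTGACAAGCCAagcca
SESN1, intron, minus strand, chr6:109008989-109009082: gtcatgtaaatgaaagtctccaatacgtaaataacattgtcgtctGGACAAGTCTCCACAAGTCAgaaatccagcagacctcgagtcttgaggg

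MDM2 alone of the 3 holds 2 such matches in the window, the first 94 to 75 bases before the nearer start and the second, with 3 mismatches, 56 to 37 bases before it. The FAS match lies 122 to 103 bases before its start and the SESN1 match 49 to 30. In the GENCODE release 29 annotation of the same assembly the MDM2 and SESN1 stretches lie in introns of longer transcripts of those genes, upstream of an internal start, and the FAS match lies in an exon of FAS and of ACTA2, which overlap there. In FAS and in SESN1 the first decamer of the match fits the consensus exactly, which an exact decamer does in 5.57% of all windows. A match is a description of the letters, and a gene without one in this window, such as CDKN1A, may be bound elsewhere. No binding was measured. The expression tables use build hg19, so none of these positions is joined to them.

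The deposited tables give 1 FPKM (fragments per kilobase of transcript, scaled to library size) per group, made by the authors, so no SD stands behind a value and read depth is unknown. The 10 most abundant loci took 44.9% to 52.1% of all FPKM, depending on the group. The labelled cell states were set beside their markers: 10 of 10 pluripotency markers reached 1 FPKM on both days, while mesoderm markers that reached it went from 1 of 9 at day 0 to 9 of 9 at day 3.5. Their summed FPKM was 11.2 (soft) against 15 (stiff) at day 0 and 167 against 56.1 at day 3.5. In bulk RNA, fewer cells of a type and less RNA per cell cannot be told apart.

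The targets covered a wide range of levels, which FPKM allows to be compared between genes because it is per length. MDM2 and BAX were above 75 FPKM in every group, TP53I3 lay between 21.9 and 32.3, SESN1 between 6.96 and 13.7, and the other 5 genes were below 10 FPKM in every group. Among the loci with at least 1 FPKM, MDM2 stood higher than 95.2% on the soft gel at day 0, and BAX higher than 94.7%. FAS and ZMAT3, the lowest, stood higher than 28.6% and 15.3% there. The targets of a single factor thus differed among themselves by far more than any of them differed between groups, from 1.31 FPKM (ZMAT3) to 161 (MDM2) in the soft group at day 0 alone: the widest span of a gene over the 4 groups was 2.88 times, for FAS, and the narrowest 1.47 times, for TP53I3.

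**Figure D1:**
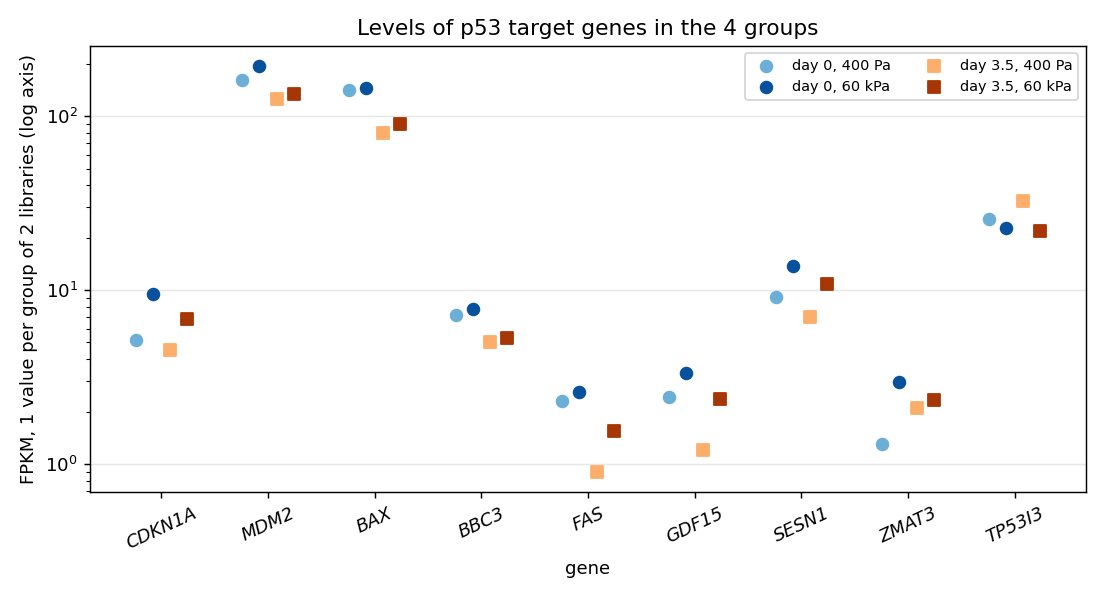
FPKM (log axis, 1 value per group of 2 libraries, no error available) of the 9 target genes; circles are day 0, squares day 3.5, pale colours 400 Pa and dark colours 60 kPa. The dark symbol is above the pale one of the same day for every target except TP53I3, and MDM2 and BAX stand above 75 FPKM in all 4 groups.

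The first comparison asked whether undifferentiated cells differed between gels. At day 0, 8 of the 9 targets had the higher FPKM on the stiff gel, TP53I3 being the exception, but none was called in the authors' deposited table (q below 0.05), where 0.139% of the 17315 loci tested were (0.0751% as higher on 60 kPa and 0.0635% as higher on 400 Pa). The median change, log2((FPKM + 1) on 400 Pa / (FPKM + 1) on 60 kPa), was -0.26, against 0.02 over all tested loci. The 25th to 75th percentiles of all tested loci ran from -0.15 to 0.20. Of those loci, 46.1% lay on the stiff side. CDKN1A and ZMAT3, 2 of the 9, had an unadjusted p below 0.05 in the authors' deposited table, both with the higher value on 60 kPa. Of all tested loci 1.86% passed that limit, 0.953% with the higher value on 60 kPa. Every q of the 9 genes was between 0.960 and 1.0 in the authors' deposited table. Summed marker levels were not equal between gels at day 0 either. The amnion and trophoblast markers, 2 of 7 at 1 FPKM or more and TP63 listed at 0 on the soft gel, summed to 15 FPKM (soft) against 7.34 (stiff), and the authors' deposited table called TFAP2A among them, with 2.41 FPKM against 0.465 (q = 0.0390). The fibroblast markers, 4 of 8 at 1 FPKM or more and DCN listed at 0 on the stiff gel, summed to 159 against 212, but THY1 alone made up 135 against 191 of this. The other 3 at that level, COL1A1, COL1A2 and PDGFRB, were higher on the soft gel, without a call. The neuroectoderm markers, 3 of 8 at 1 FPKM or more, with LHX2 listed at 0 on the soft gel and SOX1 on the stiff one, summed to 189 against 112. OTX2 alone made up 136 against 82.2 of this, and all 3 at that level were higher on the soft gel, without a call. The part of these marker lists in the values of the targets was not tested.

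CDKN1A (chr6:36644258-36655154 on hg19) encodes p21, the inhibitor of cyclin-dependent kinases through which p53 arrests the cell cycle. It was at 5.19 FPKM (soft) against 9.48 (stiff) at day 0, and at 4.50 against 6.84 at day 3.5. The stiff gel had the higher value on both days, by 1.83 and 1.52 times. The change was -0.76 at day 0 with p = 0.0278 and q = 1.0 in the authors' deposited table, and -0.51 at day 3.5 with p = 0.179. The standard error (SE) of the log2 ratio, read as the deposited ratio divided by the deposited test statistic, was 0.64 at day 0 and 0.77 at day 3.5. The approximate 95% interval at day 0 ran from -2.12 to 0.39.

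MDM2 (chr12:69201956-69365350 on hg19), the ubiquitin ligase that degrades p53, was at 161 FPKM (soft) against 194 (stiff) at day 0. At day 3.5 it was at 126 against 135. Both day 3.5 values are below both day 0 values, and the gels are close on each day. The changes of -0.26 (SE 0.83) and -0.10 (SE 1.22) are smaller than their errors. The authors' locus also holds CPM and 2 further transcripts in rows of their own, of which RP11-611O2.5 was at 20.8 against 22.2 FPKM at day 0.

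BAX and BBC3, genes of the mitochondrial path of cell death, showed the gels closest together over both days. BAX (chr19:49458072-49465143 on hg19), which opens the outer mitochondrial membrane, was at 142 FPKM (soft) against 145 (stiff) at day 0, and at 79.7 against 89.7 at day 3.5. BBC3 (chr19:47724081-47736023), which encodes PUMA, a BH3-only protein that frees BAX from its inhibitors, was at 7.20 against 7.83, then at 5.06 against 5.29. In both genes the 2 gels of a day lay within 1.13 times of each other, and each day 3.5 value was below each day 0 value. The interval of the BAX ratio at day 0 ran from -1.06 to 1.0 on the log2 scale, so a difference of about that size in either direction would not be detectable here. That of BBC3 ran from -1.13 to 0.89.

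FAS (chr10:90639491-90775542 on hg19), the death receptor for FAS ligand, was at 2.30 FPKM (soft) against 2.60 (stiff) at day 0, and at 0.904 against 1.55 at day 3.5. At day 3.5 it reached the minimum of 1 FPKM only through the stiff gel, where it was 1.71 times higher (change -0.42, SE of the log2 ratio 1.43). Its p there was 0.191 in the authors' deposited table. The locus also holds STAMBPL1 and ACTA2 in rows of their own; ACTA2, a smooth muscle actin on the opposite strand, was at 0.313 against 1.07 FPKM at day 0 and at 1.27 against 0.416 at day 3.5. Whether the authors counted by strand is not given in the sources used here, so reads of the overlapping genes cannot be told apart.

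GDF15 (chr19:18485541-18500102 on hg19) encodes a secreted stress cytokine of the TGF-beta family. It was at 2.43 FPKM (soft) against 3.36 (stiff) at day 0, and at 1.20 against 2.37 at day 3.5. The ratio of the stiff to the soft gel was 1.38 at day 0 and 1.98 at day 3.5, the widest of any member at day 3.5. Its errors were also the widest there (SE 1.74), and p was 0.282 in the authors' deposited table.

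SESN1, ZMAT3 and TP53I3 act in stress metabolism and RNA control. SESN1 (chr6:109307640-109416022 on hg19), a sestrin that restrains the growth kinase mTORC1, was at 9.08 FPKM (soft) against 13.7 (stiff) at day 0, and at 6.96 against 10.8 at day 3.5. The stiff gel was higher by 1.51 and 1.55 times, with p = 0.190 and p = 0.362 in the authors' deposited table. A second SESN1 row at the same locus was at 2.10 against 2.92 FPKM at day 0, and at 2.86 against 2.12 at day 3.5, so it lay on the other side at day 3.5. With the rows summed, SESN1 was at 11.2 against 16.6 FPKM at day 0 and at 9.82 against 12.9 at day 3.5, and the ratios became 1.48 and 1.32.

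ZMAT3 (chr3:178734984-178790067 on hg19), an RNA-binding zinc finger protein, was at 1.31 FPKM (soft) against 2.95 (stiff) at day 0, and at 2.09 against 2.32 at day 3.5. The soft gel at day 0 stood apart below the other 3 groups. This was the largest ratio between gels of any member, 2.26 times (change -0.78, SE of the log2 ratio 0.77), with p = 0.00335 and q = 0.960 in the authors' deposited table. For every member on both days the deposited p-value was below a two-sided normal reading of the deposited statistic. That reading gave 0.128 for ZMAT3 and 0.175 for CDKN1A at day 0, and 0.588 for FAS at day 3.5. The SEs and intervals given here rest on the statistic, so they are wider than the deposited p-values imply.

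TP53I3 (chr2:24299396-24424567 on hg19) encodes PIG3, an oxidoreductase linked to reactive oxygen species. It was at 25.5 FPKM (soft) against 22.7 (stiff) at day 0, and at 32.3 against 21.9 at day 3.5. It was the member with the higher value on the soft gel on both days (changes 0.16 and 0.54, SE 0.50 and 0.68). It differed in its order of groups as well, being highest on the soft gel at day 3.5, the group where 7 of the other 8 targets were lowest. The merged row of FAM228A and FAM228B at the same locus was at 12.3 against 10.2 FPKM at day 3.5.

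At day 3.5 the direction was as at day 0: the same 8 of 9 targets had the higher FPKM on the stiff gel, where 48.1% of the 18225 tested loci did. None was called in the authors' deposited table, against 1.33% of those loci (0.252% as higher on 60 kPa and 1.08% as higher on 400 Pa). None had an unadjusted p below 0.05 there, which 5.93% of all tested loci had, 2.13% with the higher value on 60 kPa. The median change was -0.17, against 0.02 over all tested loci, and lay inside their 25th to 75th percentiles (-0.25 to 0.28). The stiff value was at least 1.5 times the soft one for 3 members at day 0 and for 4 at day 3.5, where 8.64% and 15.5% of all tested loci passed that fold. CDKN1A and SESN1 did so on both days, ZMAT3 at day 0, and FAS and GDF15 at day 3.5. With both SESN1 rows summed, SESN1 missed that fold on both days and the counts became 2 and 3. Summed levels of marker genes also differed between the gels at day 3.5. The 8 neuroectoderm markers, of which 7 reached 1 FPKM, summed to 112 FPKM (soft) against 329 (stiff). The 8 amnion and trophoblast markers, all at 1 FPKM or more, summed to 212 against 37.3, and the 8 fibroblast markers, likewise, to 262 against 73.2. The amnion and trophoblast list shares a gene with the mesoderm list, and this gene counts in both sums. In the authors' deposited table, 5 amnion and trophoblast and 3 fibroblast markers were called as higher on 400 Pa. There 3 neuroectoderm markers were called as higher on 60 kPa. Single fibroblast markers went both ways: 5 were higher on the soft gel and 3, COL1A2, PDGFRB and THY1, on the stiff one. No marker of these 3 lists was at 0. Their part in the values of the p53 targets was not tested.

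**Figure D2:**
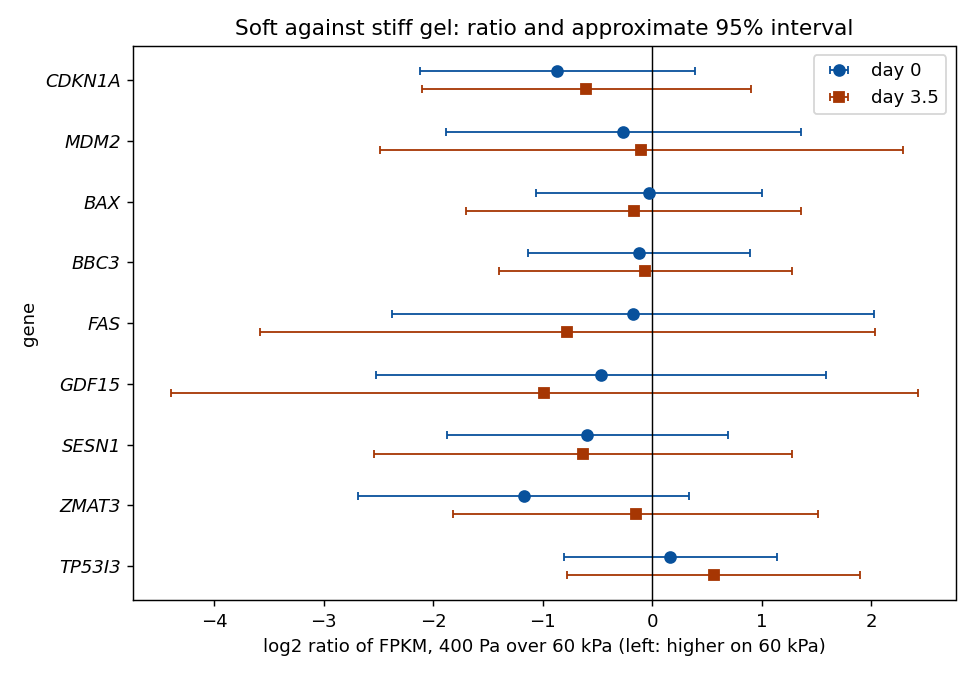
Log2 ratio of the FPKM on 400 Pa over that on 60 kPa for each target (circles day 0, squares day 3.5), with bars for the approximate 95% interval from the implied SE. All 18 intervals cover 0, but they are wider than the deposited p-values imply. On each day 8 of 9 points lie left of 0 (higher on 60 kPa).

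The contrast between gels was then compared between the days. No member differed by an adjusted p below 0.05 (normal approximation with the implied errors), a threshold that 0.0719% of 15293 loci passed. The largest difference was that of ZMAT3, whose log2 ratio was -1.17 at day 0 and -0.15 at day 3.5 (difference 1.02, SE 1.15). For SESN1 the ratios were -0.59 and -0.63 (difference -0.04, SE 1.17). The errors are wide enough that a member could differ by far more than 1 log2 unit without being called. In data simulated with the implied errors, the test called 10% of loci with a true difference of 2 log2 units. It called 39% of those with a true difference of 4.

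The 2 days come from separate tables, and it is not stated whether these were scaled together, so their levels are set side by side with no test. On the stiff gel all 9 targets were lower at day 3.5 than at day 0, and on the soft gel 7 of 9 were, with ZMAT3 and TP53I3 higher. Over the 15375 loci tested on both days, 51.2% and 53.2% were lower. The median log2 change of the members from day 0 to day 3.5 was -0.42 on 60 kPa and -0.36 on 400 Pa, against -0.02 and -0.04 over all loci. The 25th to 75th percentiles of all loci ran from -0.33 to 0.31 on 60 kPa and from -0.40 to 0.34 on 400 Pa. The median of the members was thus inside that range on 400 Pa and just below it on 60 kPa. For BAX the change was -0.69 and -0.83, and for FAS -0.50 and -0.79. The order of these genes rests on the pseudocount: with 0.1 in place of 1, FAS was at -0.71 and -1.26 and BAX at -0.69 and -0.83. The FPKM was lower by at least 1.5 times for BAX and FAS on the stiff gel, and for BAX, FAS and GDF15 on the soft gel, where 15.2% and 20.6% of all loci were. On the soft gel ZMAT3 was at least 1.5 times higher, as were 17.9% of all loci. The summed FPKM of the 10 pluripotency markers was also lower at day 3.5, 597 (soft) against 931 (stiff), than at day 0, 2156 against 2274; its part in these values was not tested.

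**Figure D3:**
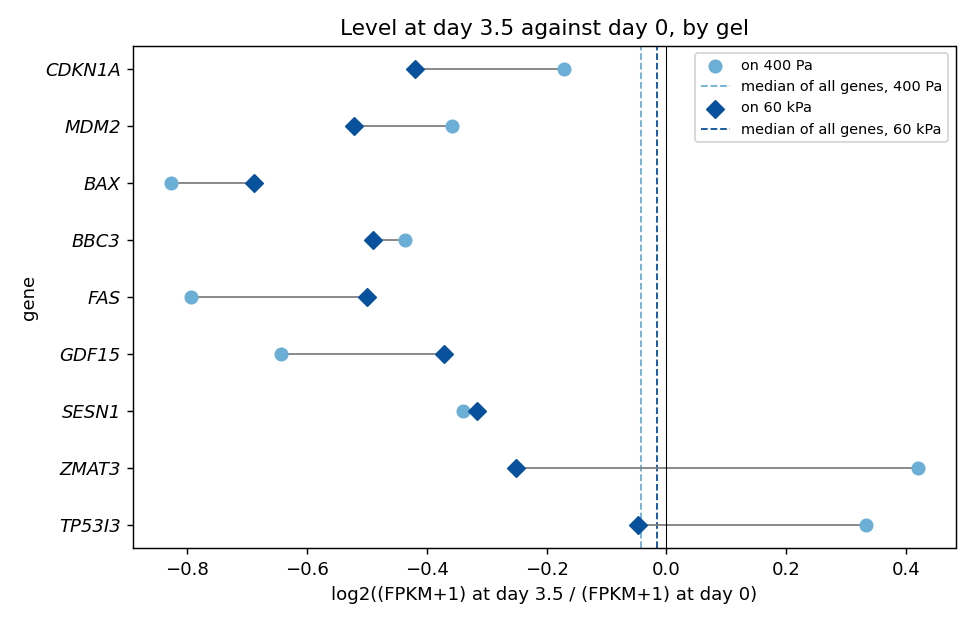
Log2((FPKM + 1) at day 3.5 / (FPKM + 1) at day 0) of each target on 400 Pa (circles) and 60 kPa (diamonds), with dashed lines at the median of all loci; no error is available. All diamonds lie below 0, and the circles of ZMAT3 and TP53I3 lie above it.

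Putting the 4 groups in order, 8 of 9 targets were highest in undifferentiated cells on the stiff gel and 7 were lowest in induced cells on the soft gel. The genes MDM2, BAX, BBC3, FAS and GDF15, 5 in all, shared the whole order: day 0 on 60 kPa, day 0 on 400 Pa, day 3.5 on 60 kPa, day 3.5 on 400 Pa. CDKN1A, SESN1 and ZMAT3 put the gel before the day, with both stiff groups above both soft ones. In TP53I3 both soft groups were above both stiff ones. How many of all loci share these orders was not counted, so the orders are not shown to be particular to the targets. No member was called on either day, so the order of neighbours within a day is not settled. A missing call does not show that their levels are equal. Neighbours of different days were not tested.

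MDM4, the partner of MDM2 that blocks p53 activity, was at 9.36 against 8.47 FPKM at day 0 and at 10.1 against 11.2 at day 3.5. PPM1D, the phosphatase that switches p53 signalling off, was at 10.3 against 11.2, then at 12.1 against 11.8. Neither shared the order of the targets: both were higher at day 3.5 than at day 0 on each gel.

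The wider set of p53 regulators (20 tested at day 0, 21 at day 3.5) had a median change near that of all loci, -0.02 at day 0 and -0.07 at day 3.5. None was called at day 0. At day 3.5 the authors' deposited table called TP63 as higher on the soft gel, with 3.21 FPKM against 0.488 (log2 ratio 2.72, SE 1.15, q = 0.00783). TP63 encodes a p53 relative of epithelial and amniotic cells, and is also one of the amnion and trophoblast markers above. The kinase gene PRKDC, which signals DNA breaks, was at 52.4 against 76.8 FPKM at day 3.5, and the coactivator gene EP300 at 8.02 against 11.5, without a call. At day 0 the coactivator gene CREBBP was at 9.86 against 7.34 FPKM and the deubiquitinase gene USP7 at 56.5 against 71.4.

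Other p53 targets, in 3 lists with 46 genes, leaned to the stiff gel at day 0 and to neither gel at day 3.5. Of 40 tested on each day, 34 were higher on 60 kPa at day 0 and 19 at day 3.5, against 46.1% and 48.1% of all tested loci. Their median change was -0.20 at day 0 and 0.02 at day 3.5, and the difference between the days was not tested for the lists. Of the 40 genes, 18 were higher on the stiff gel on both days, 5 on the soft gel on both days, 16 went from the stiff to the soft side and 1 the other way. The same split over all loci was not counted.

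Among arrest and repair genes, 12 of 14 were on the stiff side at day 0 (median -0.26) and 7 of 14 at day 3.5, with no call. RRM2B, the p53-induced subunit of ribonucleotide reductase, was at 75.3 against 137 FPKM at day 0 and at 28.6 against 61.4 at day 3.5, but with an SE of 1.77 and 2.87. RPS27L, a ribosomal protein paralog, was at 126 against 176 at day 0. PLK2, a polo-like kinase, was on the other side at day 3.5, at 39.9 against 18.6 FPKM (change 1.06, SE 1.04).

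Of 12 cell death genes, 10 were on the stiff side at day 0 (median -0.14) and 6 at day 3.5, again with no call. PMAIP1, which encodes the BH3-only protein NOXA, was at 35.6 FPKM (soft) against 48.3 (stiff) at day 0, and at 7.87 against 9.45 at day 3.5. Its levels were thus lower at day 3.5 by 2.05 log2 units on the soft gel and 2.24 on the stiff one (log2 changes -2.05 and -2.24), a wider step than that of any of the 9 members. FDXR, a mitochondrial ferredoxin reductase, was at 7.95 against 10.4 at day 0 and at 7.23 against 9.70 at day 3.5. PERP, a desmosome protein, was at 31.3 against 25 at day 3.5.

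Of 14 genes of metabolism, autophagy and secretion, 12 were on the stiff side at day 0 (median -0.24) and 6 at day 3.5 (median 0.07). In this list 1 gene, not reported here, was called at day 0 as higher on 60 kPa, where 0.0751% of all tested loci were. None was called at day 3.5. EPHA2, an ephrin receptor, was at 5.37 against 9.74 FPKM at day 0. KITLG, the ligand of the receptor KIT, was at 8.30 against 2.57 at day 3.5, with p = 0.0015 and q = 0.0997 in the authors' deposited table. GPX1, a glutathione peroxidase, was at 116 against 94.6 at day 3.5.

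**Figure D4:**
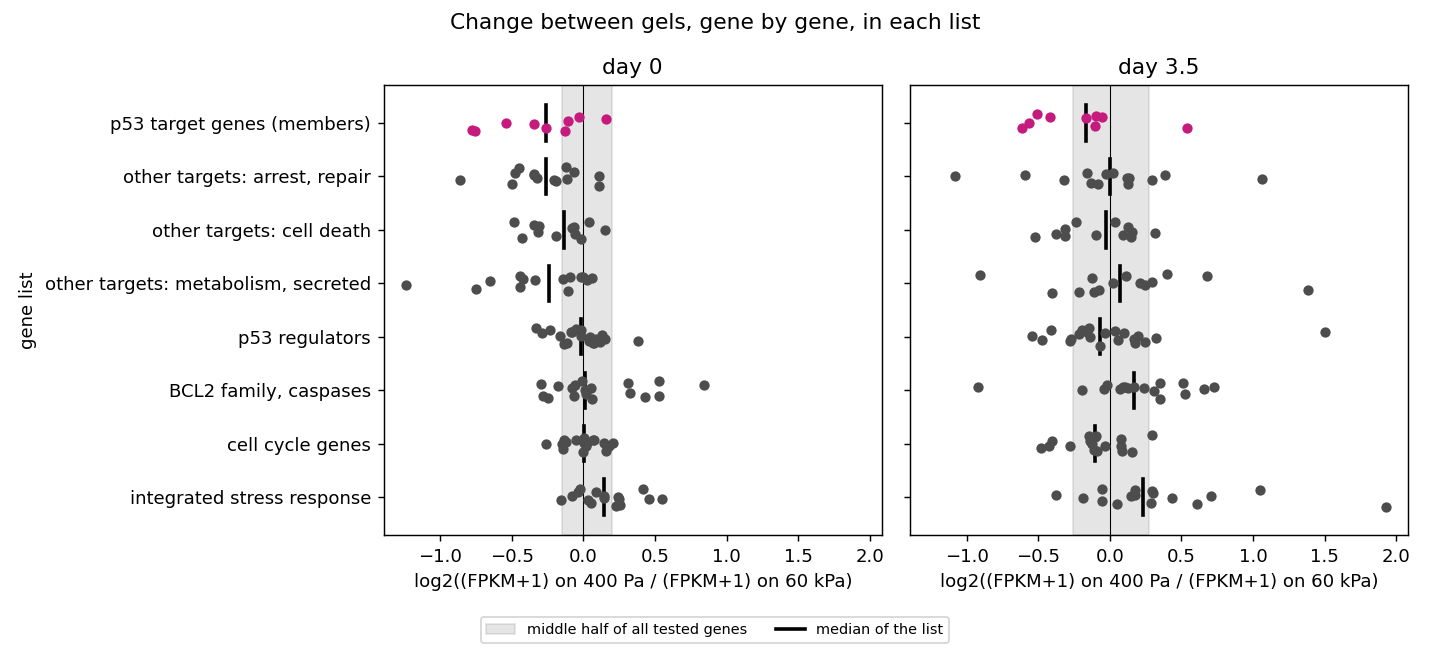
Change between gels, log2((FPKM + 1) on 400 Pa / (FPKM + 1) on 60 kPa), of each tested gene in 8 lists at day 0 (left) and day 3.5 (right); bars are list medians and the grey band holds the middle of all tested loci from the 25th to the 75th percentile. The members (pink) and the other p53 targets lie mostly left of 0 at day 0, with medians of -0.26, -0.26, -0.14 and -0.24, and at day 3.5 the other targets spread to both sides.

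Genes of the cell cycle and of the apoptosis machinery, which p21, PUMA and BAX act on or with, were set beside the targets. Of 17 mitotic and replication genes that are repressed when p53 is active, 10 were above 0 at day 0 (median 0.01) and 5 at day 3.5 (median -0.11), with no call on either day. MKI67, a proliferation marker, was at 21.1 against 25.5 FPKM at day 0 and at 17.5 against 24.8 at day 3.5. FOXM1, a mitotic transcription factor, was at 20.9 against 18 at day 0, and AURKB, a mitotic kinase, at 44.3 against 59.7 at day 3.5. Of the BCL2 family and caspase list, 10 of 18 were above 0 at day 0 (median 0.01) and 13 of 17 at day 3.5 (median 0.17), also with no call. BCL2L11, which encodes the BH3-only protein BIM, was at 7.05 FPKM (soft) against 14.2 (stiff) at day 3.5 (q = 0.209 in the authors' deposited table), while BMF, another BH3-only gene, was at 21.6 against 12.7. BIK was at 5.77 against 2.78 and XIAP, an inhibitor of caspases, at 13.9 against 9.34 FPKM at day 0.

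Genes with the most similar profile were sought among 8921 loci, by Euclidean distance between log2(FPKM + 1) values centred on each gene's mean over the 4 groups. With 4 points, likeness is a description only. To GDF15, the member with the widest range on that scale, the nearest were RP11-365D23.4 (distance 0.09), ZNF569 (0.11) and GPN3 (0.13). GPN3 was at 23.5, 33.5, 16.4 and 24.1 FPKM in the order day 0 on 400 Pa, day 0 on 60 kPa, day 3.5 on 400 Pa and day 3.5 on 60 kPa. To the median profile of the 9 members the nearest were NINJ1 (0.05), a locus known by a clone name alone (0.05) and METTL21A (0.06). NINJ1, a membrane protein, was at 8.18, 9.95, 5.49 and 6.78 FPKM in the same order.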

How the data were processed

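Total RNA of 8 libraries in 4 groups was sequenced, per the labels. The FPKM values were made by the authors with Cufflinks on hg19, per the submitters' processing notes; the aligner, annotation, versions and strand setting were not given in the sources used here. For each locus the deposited tables list 1 FPKM per group and the authors' log2 ratio. They also list the p-value and q-value of the authors' comparison and its test statistic, a score deposited without a stated scale. From the deposited values the change was computed with a pseudocount of 1, which understates low genes, and the SE as the deposited log2 ratio over the statistic. Loci the authors tested with at least 1 FPKM in a group were counted, each symbol a single time. Locus starts were raised by 1 to be 1-based. The members and the 9 lists of related genes (with 7 marker lists) were chosen with earlier results of these data known. All members, MDM4 and PPM1D are named whatever their result; from each list every called gene and the 2 with the largest change among those of at least 5 FPKM; and 3 nearest genes per profile. Some genes this rule would name are not reported here, but count in their lists. PMAIP1 at day 3.5 and genes sharing a locus with a member were named after their values were seen. The test of the difference between days was run on data simulated with the same implied errors. That run cannot show whether those errors are right. Calculations ran in Python 3.11.15 (numpy 2.4.6, pandas 2.3.3, matplotlib 3.10.9, scipy 1.17.1).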

Additional observations from a re-analysis of the deposited data

How the results depend on the processing

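No paired analysis was possible because the tables hold 1 value per group, and for the same reason no replicate could be left out. The count of members called was 0 on both days at q below 0.05 and at q below 0.10, without an FPKM minimum, with one of 5, with a new adjustment and with the row of smallest p. Several of these settings could not give another count. All 9 members already passed the minimum of 1 FPKM, their smallest q was 0.960, and the row of smallest p could alter SESN1 alone. At an unadjusted p below 0.05 the count was 2 at day 0 and 0 at day 3.5. With centring and upper-quartile scaling, 8 of 9 members stayed on the stiff side on each day, but centring moved all genes by only 0.02. A pseudocount of 0.1 or 0.5 cannot move a gene across 0, and summing rows altered SESN1 alone. The 8 of 9 seen with these settings is therefore no separate check. Over all of these settings the median ran from -0.29 to -0.26 at day 0 and from -0.23 to -0.17 at day 3.5. The 4 members that share a locus with other genes include TP53I3, the only member on the soft side. Leaving these 4 out, an alternative chosen after seeing the data, therefore had to give 5 of 5 on the stiff side. The medians without them were -0.34 at day 0 and -0.17 at day 3.5. The all-loci count for the difference between days was 11 with the error from the statistic and 48 with that from the p-value; that of the members was 0 with both. For the members at least 1.5 times higher on the stiff gel, summed rows (added after seeing the data for this count) gave 2 and 3 in place of 3 and 4. Of 214 alternatives, 2 changed sign, both list medians within 0.02 of 0 at day 0 (BCL2 family, -0.01, and cell cycle genes, -0.02, after centring). The 214 include counts of genes, which cannot change sign, and single members with another pseudocount, which cannot either. Depth is unknown, and the implied errors limit what can be called.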

Other observations

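Of 16 integrated stress response genes, 12 were higher on 400 Pa at day 0 and 12 at day 3.5, with medians of 0.14 and 0.23 and no call. Of all tested loci, 46.1% and 48.1% lay on the stiff side. Both medians lie between the 25th and 75th percentiles of all tested loci, -0.15 to 0.20 and -0.25 to 0.28. The 12 were not the same genes on both days: 8 were higher on 400 Pa on both days, 4 at day 0 alone and 4 at day 3.5 alone. Any link to the p53 targets was not tested. ATF3, a stress transcription factor, was at 29 FPKM (soft) against 6.89 (stiff) at day 3.5 (q = 0.0899 in the authors' deposited table). HERPUD1, a gene of the endoplasmic reticulum stress response, was at 17.0 against 12.1 at day 0 and at 36.0 against 16.8 at day 3.5, and DDIT3, which encodes CHOP, at 8.5 against 5.5 at day 0.

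Of 12 other genes of G1 control (cyclins, their kinases, kinase inhibitors and RB1), 7 were above 0 at day 0 and 8 at day 3.5 (medians 0.04 and 0.21). CDK6, a kinase partner of D cyclins, was called as higher on the soft gel at day 3.5, with 10.5 FPKM against 4.93 (change 0.95, SE of the log2 ratio 0.74, q = 0.0490 in the authors' deposited table). CDKN1C, which encodes the inhibitor p57, was at 20.9 against 12.7 at day 3.5, and at day 0 CCND3 was at 11 against 7.60 and CCNE2 at 6.69 against 4.49. Of 9 sestrin and TOR pathway genes, 7 were above 0 at day 0 and 5 at day 3.5 (medians 0.18 and 0.03), with no call. SESN3, a sestrin induced by FOXO factors, was at 80.5 against 65.6 FPKM at day 3.5 and at 26.9 against 23.6 at day 0, so unlike SESN1 it was higher on the soft gel on both days and higher at day 3.5.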
